A study of Arabidopsis thaliana with 25 samples.

Results

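Roots of the Arabidopsis thaliana mutant phf1 from low P soil were compared with phf1 roots from medium P soil. The comparison takes the 6 libraries of these groups, 3 from each soil, out of 25 root libraries in the count table, and all 18606 of 27206 genes that passed a filter on low counts. Both groups were grown from seed in a greenhouse under short days and harvested at 8 weeks. The soils came from field plots that had received P at 0 (low) or 15 (medium) kg per ha each year, and the libraries of each group came from pots with soil of 3 different plots. No plot gave both soils, so the P regime and other differences between the plots of a regime cannot be told apart. The paper cites a report on soil minerals in which the regimes differed significantly in P content alone. All 6 libraries share the phf1 mutation in the Col-0 background, and phf1 is represented by a single line. Also used were phf1 libraries from high P soil (45 kg of P per ha each year, 3 libraries) and from low+P pots (low P soil given 12.6 mg of P per pot during growth, 2 libraries). Wild-type Col-0 libraries from low and medium P soil (3 each) were used too, and all were of the same age. The low P pots of Col-0 and phf1 held soil of the same plots, and their medium P pots shared some plots. The tests treated all libraries as independent.

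PHF1 is needed for phosphate transporters to leave the endoplasmic reticulum and reach the plasma membrane, so phf1 roots take up inorganic phosphate (Pi) poorly. When Pi runs short, the transcription factors PHR1 and PHL1 switch on the phosphate starvation response (PSR), which includes genes for Pi transporters, for phosphatases and RNases that release Pi, and for enzymes that replace membrane phospholipids with lipids lacking P. SPX proteins hold PHR1 back when Pi is plentiful. The question for these libraries is which genes differ between soils of different P supply when Pi uptake is already impaired.

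The libraries held 2773753 to 5504952 counts in low P and 2821675 to 7252956 in medium P. The letters A, B and C name the libraries of each group, without order, because the count table does not say which pot each came from. Low P library C stood apart from the other low P libraries. Its Pearson correlation across genes (log2 CPM, where CPM are counts scaled to a common library total) was 0.859 with A and 0.872 with B, whereas A and B had 0.935 with each other, and its correlations with the 3 medium P libraries were 0.914 to 0.956. Medium P library A had 0.908 and 0.901 with the other medium P libraries, which had 0.970 with each other. On the first principal component of the 11 phf1 libraries (40.8% of the variance), low P A and B lay at -94.9 and -61.4 and low P C at 57.0, beyond the medium P libraries at 23.7 to 43.3. No pair of libraries agreed within sampling noise. P-values measure the spread between pots of this 1 experiment.

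**Figure D1:**
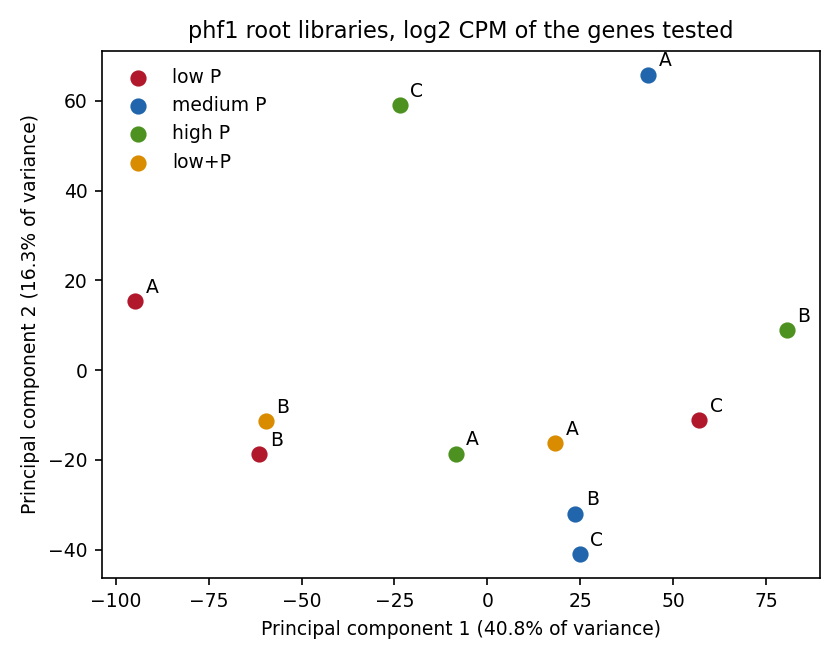
First (x axis) and second (y axis) principal component of log2 CPM over the genes tested, as unitless scores, for the 11 phf1 libraries, with 1 point per library coloured by P regime and lettered within its group. Low P C, at 57.0 on the first component, lies on the side of the medium P libraries and away from low P A (-94.9) and B (-61.4).

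The test was edgeR's quasi-likelihood test over the 11 phf1 libraries, and called genes are those with an adjusted p under 0.1. PHF1 itself (AT3G52190) was still transcribed in the mutant. It had 20.4, 9.73 and 17.3 CPM in phf1 under low P and 29.1, 14.2 and 12.9 CPM in phf1 under medium P, which overlap, whereas Col-0 had 28.1, 19.9 and 46.9 CPM under low P and 16.2, 22.5 and 26.1 CPM under medium P. Reads of PHF1 therefore do not check the genotype labels. PHR1 (AT4G28610), the main regulator of the PSR, had 64.4, 70.7 and 61.9 CPM under low P and 74.1, 64.9 and 68.0 CPM under medium P, which overlap. Its log2 fold change for low minus medium was -0.03 (standard error 0.173). In TAIR10.1 PHR1 overlaps a gene on the opposite strand, and non-stranded libraries cannot tell the reads of such pairs apart. PHL1 (AT5G29000) had 87.1, 63.5 and 48.1 CPM under low P and 43.6, 48.0 and 48.2 CPM under medium P. The low P range starts within the medium P range, and the log2 fold change was 0.56 (standard error 0.352).

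Across all genes, edgeR called 0 between the low and medium P soils in phf1 (0% of 18606), and the smallest adjusted p was 0.978. At an unadjusted p below 0.05 there were 589 genes (3.17%), of which 244 (1.31% of all) were higher and 345 (1.85%) lower in low P. limma-voom also called 0, with 450 genes at an unadjusted p below 0.05 (1.04% higher and 1.38% lower). DESeq2 had 684 genes at an unadjusted p below 0.05 (1.35% higher and 2.34% lower) and called 3, all lower in low P (0.0162% of 18526). The called genes were COL4 (adjusted p = 0.0596), AT5G12420 and NIT2 (0.0933 each), and edgeR gave the same 3 genes its smallest p-values. The low and medium P libraries did not overlap in CPM for 674 higher genes (3.62% of 18606) and 774 lower ones (4.16%). Where low P C was left out, edgeR still called 0, but 2408 genes had an unadjusted p below 0.05. Libraries of 1 group varied by a biological coefficient of variation of 0.386, and the median standard error of a log2 fold change was 0.344.

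Among the genes of Pi uptake, export, signalling, scavenging and lipid remodelling, no listed member that passed the filter was called, and none had an unadjusted p below 0.05 in edgeR. Of the PHT1 transporters, which carry Pi into the root, 5 of the 6 that passed the filter were lower in low P. Their median log2 fold change was -0.30, beside 0.02 over all genes tested. PHT1;1 (AT5G43350), a major root transporter, had 133, 21.6 and 170 CPM under low P and 311, 75.8 and 71.3 CPM under medium P. The groups overlap, and the log2 fold change was -0.43 (standard error 0.923). Of its 50-base stretches, 42.5% also occur in other genes, so its count is uncertain. PHT1;4 (AT2G38940) had 5.10, 0.721 and 18.9 CPM under low P against 33.3, 11.4 and 8.80 CPM under medium P, again with overlap (log2 fold change -0.99, standard error 1.1). The list's median was 0.48 without medium P A and 0.12 without low P B, so its direction rests on single libraries.

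Genes for the movement of Pi after uptake had a median log2 fold change of -0.12, with 2 of 5 higher in low P. The median was 0.02 without low P B and 0.16 without medium P A. PHO1 (AT3G23430), which exports Pi into the xylem, had 507, 374 and 471 CPM under low P and 687, 414 and 421 CPM under medium P (log2 fold change -0.12, standard error 0.339). PHO2 (AT2G33770), whose product marks PHO1 and PHT1 proteins for breakdown, had 750, 1145 and 626 CPM under low P and 836, 791 and 804 CPM under medium P. NLA (AT1G02860), which removes PHT1 proteins from the plasma membrane, had 83.9, 120 and 86.3 CPM against 63.4, 150 and 135 CPM, and it overlaps genes on the opposite strand. PHO1;H1 (AT1G68740), a PHO1 relative, had 4.47, 10.8 and 23.6 CPM under low P and 12.1, 4.69 and 13.6 CPM under medium P. In all 4 of these genes the low P and medium P libraries overlapped.

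Of the 7 Pi signalling genes that passed the filter, 4 were higher and 3 lower, with a median of 0.01 that was -0.08 without low P A and -0.01 without medium P C. SPX1 (AT5G20150), a sensor gene that Pi starvation induces, had 92.2, 27.4 and 40.5 CPM under low P and 47.8, 101 and 49.5 CPM under medium P. SPX2 (AT2G26660) had 39.9, 22.0 and 21.3 CPM under low P and 23.7, 30.3 and 21.2 CPM under medium P. Both overlap between the soils. The scavenging genes had a median of 0.42, with 4 of 6 higher in low P. PAP12 (AT2G27190), a secreted acid phosphatase, had 69.5, 68.9 and 48.3 CPM under low P against 48.6, 50.7 and 45.4 CPM under medium P (log2 fold change 0.42, standard error 0.201). PAP17 (AT3G17790), an acid phosphatase, had 82.6, 56.6 and 20.0 CPM under low P and 41.1, 25.6 and 18.1 CPM under medium P (log2 fold change 0.99, standard error 0.649). In both, low P A and B lay above every medium P library and low P C did not. Without low P C the median was -0.08 over the list members that passed the filter in that fit.

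The enzymes that remodel membrane lipids under Pi starvation had a median of 0.14, with 7 of 10 higher in low P, but a median of -0.06 without low P A. PLDP2 (AT3G05630), a phospholipase D, had 29.3, 17.3 and 9.08 CPM under low P and 13.5, 7.58 and 8.46 CPM under medium P (log2 fold change 0.9985, standard error 0.516). SQD1 (AT4G33030), which makes the head group of sulfolipids, had 95.0, 57.0 and 43.8 CPM under low P and 52.1, 57.2 and 44.9 CPM under medium P (log2 fold change 0.41, standard error 0.294). The highest value of either gene was that of low P A, and the groups overlapped in both. PAP17 and PLDP2 overlap genes on the opposite strand. Of the NF-YA transcription factors, 8 of 10 were higher, with a median of 0.32, led by NF-YA10 (AT5G06510) with 24.2, 26.3 and 9.26 CPM under low P and 14.9, 7.31 and 6.73 CPM under medium P.

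**Figure D2:**
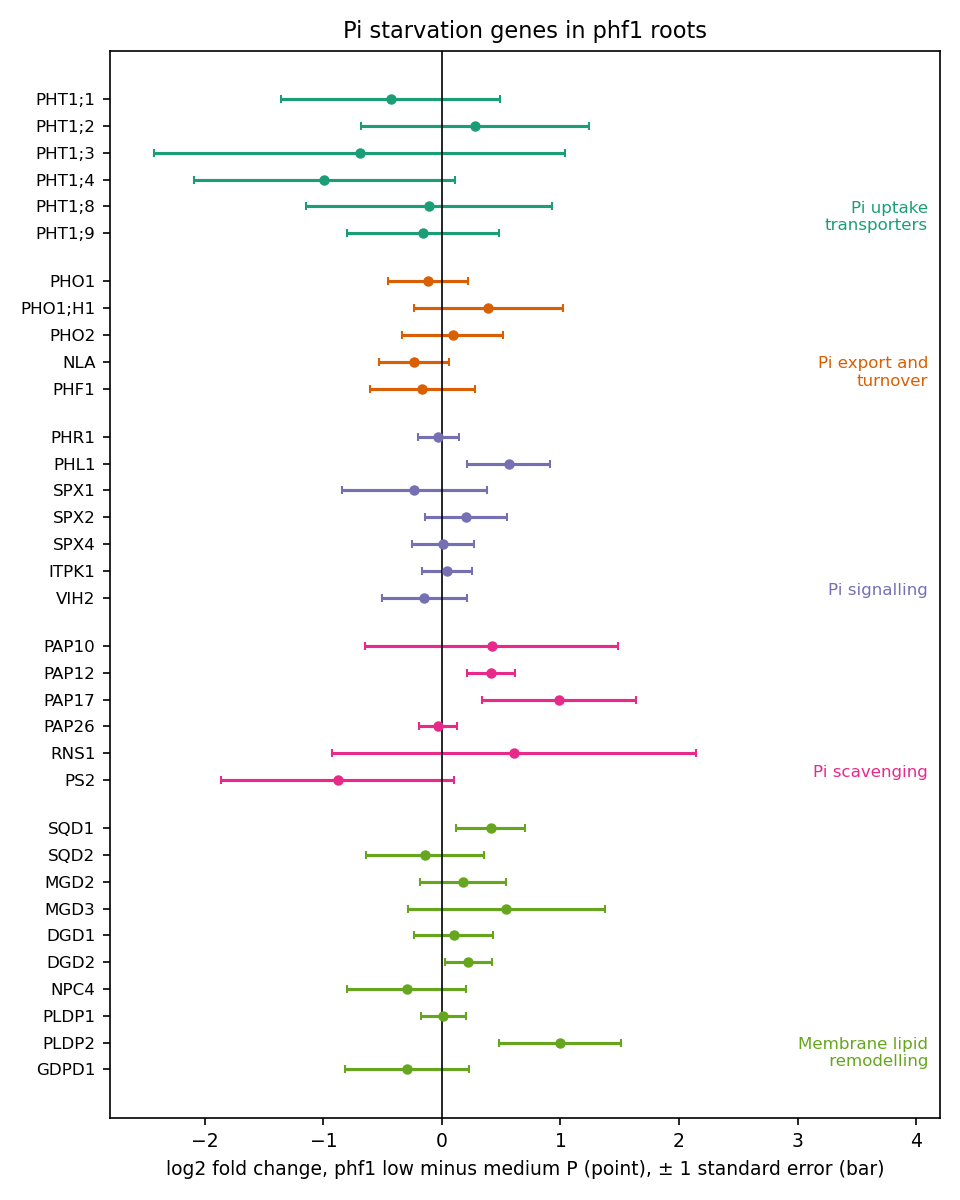
log2 fold change of phf1 low minus medium P (x axis) with 1 standard error on either side, for each member of the 5 Pi lists that passed the filter (y axis), coloured by list. The points lie between -0.99 (PHT1;4) and 0.9985 (PLDP2), and no member passed the test.

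The study also used a wider set of PSR marker genes. Of the 165 that passed the filter, 97 were higher and 68 lower in low P (median log2 fold change 0.09). The median was -0.07 without low P A, -0.02 without medium P C and 0.28 without medium P A, so its sign rests on single libraries. edgeR called 0 of them. At an unadjusted p below 0.05, 2 were higher (1.21%, beside 1.31% of all genes) and 5 lower (3.03%, beside 1.85%), shares near those of all genes. The count was 27 without low P C, and 3 without low P B or without medium P A. The higher ones were SULTR3;4 (AT3G15990), of the sulfate transporter family, at 151, 143 and 44.7 CPM under low P and 48.2, 58.5 and 54.5 CPM under medium P, and AT2G37890, a mitochondrial substrate carrier, at 8.29, 11.2 and 10.9 CPM against 4.61, 5.52 and 8.97 CPM. The lower ones were AT5G40690, AT2G43535 (a knottin-like protein), AT5G63130, AIG2L and AT5G47740. AT2G43535 had 40.2, 23.1 and 77.6 CPM under low P and 161, 118 and 105 CPM under medium P. Its groups did not overlap, and the log2 fold change was -1.40 (standard error 0.436). In Col-0 the median of these markers for low minus medium P was 0.21, from the fit of the 12 Col-0 and phf1 libraries of these soils.

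The difference between the genotypes was clearest for NIT2 (AT3G44300), a nitrilase that can make the auxin indole-3-acetic acid. In phf1 this gene had 16.3, 18.4 and 15.6 CPM under low P and 93.2, 42.5 and 50.1 CPM under medium P, so that every low P library lay below every medium P library (log2 fold change -1.84, standard error 0.395). In Col-0 the order was the opposite, with 133, 93.5 and 73.1 CPM under low P and 11.7, 18.6 and 27.6 CPM under medium P (log2 fold change 2.39, standard error 0.363). The difference between these changes, phf1 minus Col-0, was -4.24 (standard error 0.512, adjusted p = 0.0937 from edgeR's interaction test). It was the only gene of 17856 that this test called (0.0056%), beside 835 genes at an unadjusted p below 0.05 (2.11% more positive in phf1 and 2.56% more negative). Col-0 on its own had 0 genes called by edgeR between these soils, with 633 (3.55%) higher and 741 (4.15%) lower in low P at an unadjusted p below 0.05. NIT2 was at 25.9, 76.6 and 37.8 CPM in phf1 high P and at 27.6 and 23.8 CPM in phf1 low+P, all above the low P libraries. Of its 50-base stretches, 5.66% occur in other genes. Leaving out a library changed the interaction call for NIT2 in 10 of 12 cases, although the difference stayed between -4.45 and -3.83. Of all genes, the count called was 0 without any of these 10, 5 without Col-0 low P C and 151 without Col-0 medium P C.

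COL4 (AT5G24930), a CONSTANS-like zinc finger protein, had 0.638, 1.80 and 0.363 CPM in phf1 under low P, which are 2, 5 and 2 counts. In phf1 medium P it had 15.6, 21.7 and 2.76 CPM, so the groups did not overlap (log2 fold change -3.90, standard error 0.825). Col-0 had 131, 105 and 5.82 CPM under low P and 0.796, 3.47 and 4.51 CPM under medium P. The difference between the genotypes was -8.61 on the log2 scale (standard error 1.61, adjusted p = 0.958 from edgeR), and DESeq2 called it. In phf1 high P the gene had 24.6, 12 and 18.5 CPM, and in phf1 low+P 1.74 and 2.50 CPM. Within phf1 it was therefore low in both groups grown in low P soil. These groups are not independent soils, since the low+P pots held soil of plots that also gave phf1 low P libraries.

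**Figure D3:**
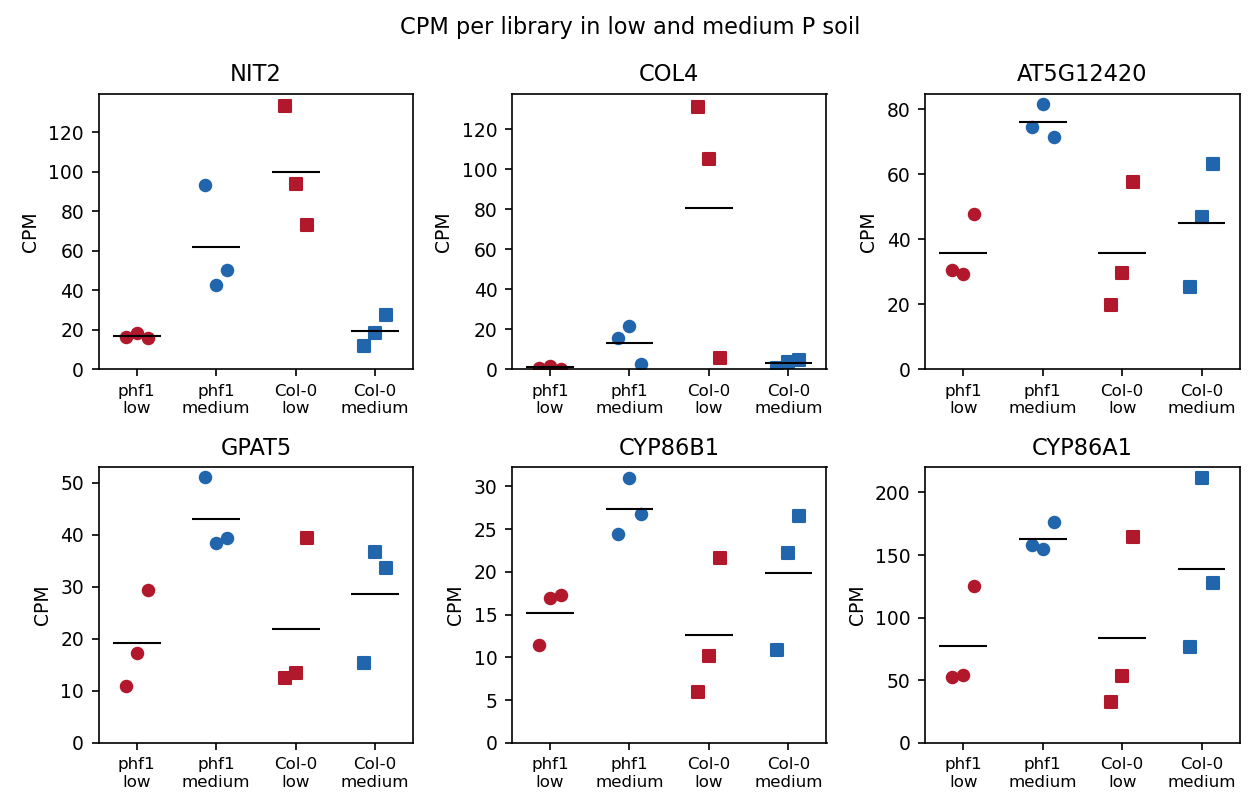
CPM (y axes, from 0) of NIT2, COL4, AT5G12420, GPAT5, CYP86B1 and CYP86A1 in each phf1 (circles) and Col-0 (squares) library from low and medium P soil (x axes), with a line at the mean of each group. In phf1 every low P point lies below every medium P point in all 6 panels, whereas in Col-0 the low P points lie above the medium P points for NIT2 and COL4 and overlap them for AT5G12420, GPAT5, CYP86B1 and CYP86A1.

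NIT2 and COL4 belong to Cluster 1, a set that the study grouped after comparing root libraries of low P with those of low+P. The study chose these genes on samples that include the phf1 and Col-0 low P libraries, so their direction here is not independent evidence. In phf1, 26 of the 121 that passed the filter were higher and 95 lower in low P than in medium P, with a median of -0.62. At an unadjusted p below 0.05, 4 were higher (3.31%, beside 1.31% of all genes) and 10 lower (8.26%, beside 1.85%). Without medium P A the median was 0.18. The count at an unadjusted p below 0.05 ran from 8 without low P A to 24 without medium P C, with 20 without medium P B. In Col-0 113 of 118 were higher in low P (median 1.87), and the median difference between the genotypes was -2.47. Among those lower in phf1 low P was NAP (AT1G69490), a NAC transcription factor of leaf senescence, with 6.70, 8.65 and 9.81 CPM under low P and 30.8, 13.1 and 11.2 CPM under medium P. LIL3:2 (AT5G47110), of the light-harvesting-like proteins that act with chlorophyll synthesis, had 2.23, 3.97 and 5.45 CPM against 7.80, 9.93 and 10.5 CPM. Among those higher was TRX3 (AT5G42980), a cytosolic thioredoxin, with 763, 1104 and 754 CPM under low P and 637, 530 and 706 CPM under medium P. TRX3 was also higher in Col-0 low P, by 0.70 on the log2 scale. EMB2785 (AT2G31060), an elongation factor family protein, had 60.0, 66.7 and 55.6 CPM under low P against 42.2, 38.5 and 46.8 CPM under medium P.

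Genes of suberin, the waxy polyester that seals the walls of endodermal and peridermal cells, were lower in phf1 low P. All 9 listed genes had a negative log2 fold change, with a median of -0.49, where 48.4% of all genes did. edgeR called 0 of them. At an unadjusted p below 0.05, 3 were lower (33.3%, beside 1.85% of all genes), or 6 without low P C, and 4 were lower without overlap (44.4%, beside 4.16%). GPAT5 (AT3G11430), an acyltransferase of suberin synthesis, had 10.8, 17.3 and 29.4 CPM under low P and 51.0, 38.5 and 39.4 CPM under medium P (log2 fold change -1.12, standard error 0.302). CYP86A1 (AT5G58860), which hydroxylates the fatty acids, had 52.6, 54.1 and 126 CPM under low P and 158, 155 and 176 CPM under medium P (log2 fold change -1.05, standard error 0.337). CYP86B1 (AT5G23190), which acts on very long chains, had 11.5, 16.9 and 17.3 CPM under low P and 24.5, 31.0 and 26.8 CPM under medium P (log2 fold change -0.82, standard error 0.196). In each of these genes all low P libraries were below all medium P libraries, and the adjusted p was 0.978. FAR1 (AT5G22500), which reduces fatty acids to alcohols, also did not overlap, at 82.0, 81.8 and 72.3 CPM against 95.0, 94.0 and 99.4 CPM, but its fold change was small (-0.24, standard error 0.338). The list's median was -0.81 without low P C and -0.34 without low P A. In Col-0 8 of the 9 genes were also lower in low P, with a median of -0.44, and none of the 9 had an adjusted p below 0.987 for the difference between the genotypes. In bulk roots, fewer cells of a type and less RNA per cell cannot be told apart.

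The 12 lower genes named were those of smallest p whose groups do not overlap. AT5G12420, annotated as a WSD1-like O-acyltransferase, a family that includes wax ester synthases, had 30.6, 29.2 and 47.8 CPM under low P and 74.4, 81.8 and 71.6 CPM under medium P (log2 fold change -1.04, standard error 0.217). AT2G23540, a GDSL-like lipase, had 47.5, 52.6 and 72.1 CPM against 125, 122 and 113 CPM (log2 fold change -1.02, standard error 0.229). AT4G24140, of the alpha/beta-hydrolases, had 6.70, 12.6 and 19.6 CPM against 37.9, 34.6 and 28.1 CPM. In all 3 low P C was the highest of the low P libraries. The 12 also held CYP86B1, NIT2, COL4, GLU1, HCEF1, GulLO2 (an arabinono-lactone oxidase family protein), AT1G61890 (a MATE efflux protein), AT1G13520 and AT3G02840. AT1G61890 had 28.7, 37.9 and 38.9 CPM under low P and 65.2, 62.9 and 60.9 CPM under medium P. AT1G13520, a protein of unknown function, had 6.70, 6.13 and 7.09 CPM against 34.4, 15.03 and 11.9 CPM, and the opposite sign in Col-0, with a log2 fold change of 1.89 (standard error 0.613). AT3G02840 was at 0.319, 0 and 0 CPM under low P and 3.19, 5.52 and 0.690 CPM under medium P.

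The 12 genes named on the higher side had log2 fold changes that overlapped in size with those of the lower side. None was as large as that of COL4 (-3.90). AT5G63710, a leucine-rich repeat kinase, had 88.3, 122.9 and 91.7 CPM under low P and 65.2, 49.2 and 59.0 CPM under medium P (log2 fold change 0.84, standard error 0.209). AT2G23890, a HAD-superfamily hydrolase, had 29.3, 29.2 and 23.8 CPM against 17.37, 16.0 and 16.2 CPM (0.78, standard error 0.202). AT3G53940, a mitochondrial substrate carrier, had 12.4, 13.3 and 14.4 CPM against 3.90, 5.24 and 8.11 CPM, and it was higher in Col-0 low P too (log2 fold change 0.97). The others were AT5G54910 (an RNA helicase), RLP40 (a receptor-like protein), AT5G48480 (of the glyoxalase family), WDR55 and AT1G65030 (WD40 repeat proteins), AR192 (a GrpE co-chaperone), AT2G45730 (a subunit of translation initiation factor 3 by annotation), EMB2762 and AT5G42150 (a glutathione S-transferase family protein). Over the 12 the log2 fold changes ran from 0.56 (EMB2762) to 1.31 (RLP40). All 12 had an adjusted p of 0.978. RLP40, AT5G48480, AT1G65030, AR192 and AT2G45730 overlap a gene on the opposite strand, and 26.9% of the 50-base stretches of RLP40 occur in other genes.

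Of the lists with at least 3 genes past the filter, the photosynthesis list, which marks shoot or greened tissue, had the largest median difference. All 18 members that passed the filter were lower in phf1 low P than in medium P (median log2 fold change -2.62). edgeR called 0 of them, 14 were lower at an unadjusted p below 0.05 (1.85% of all genes were) and 13 were lower without overlap between the soils (4.16% of all genes were). The summed CPM of the 19 listed genes was 316, 464 and 188 in low P and 1571, 1117 and 1268 in medium P, so the sums did not overlap. LHCB1.3 (AT1G29930), a chlorophyll-binding protein of the photosystem II antenna, had 17.2, 67.4 and 17.8 CPM under low P and 340, 305 and 236 CPM under medium P (log2 fold change -3.10, standard error 1.34). LHCA1 (AT3G54890), its counterpart at photosystem I, had 6.70, 20.2 and 9.99 CPM against 63.8, 68.7 and 54.9 CPM (-2.34, standard error 0.779). RBCS1A (AT1G67090), a small subunit of Rubisco, had 4.47, 18.0 and 6.90 CPM against 90.4, 63.4 and 143 CPM (-3.35, standard error 1.18). Reads of LHCB1.3 may be shared with close relatives, since 17% of its 50-base stretches occur in other genes, and it overlaps a gene on the opposite strand.

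It was the medium P libraries of phf1 that stood out. The same sum was 108 to 333 in Col-0 low P, 231 to 333 in Col-0 medium P, and 485 and 411 in phf1 low+P. In phf1 high P it was 2949, 302 and 189, so that 1 high P library was above every medium P library and the others were not. In Col-0 the list's median for low minus medium P was 0.11, the median difference between the genotypes was -2.70, and 12 of 17 members had an unadjusted p below 0.05 for that difference, none of them called. Each leave-one-out fit kept the phf1 median negative, from -3.47 without low P B to -2.11 without medium P A. The count of its genes at an unadjusted p below 0.05 was less stable, at 1 without low P C, 2 without low P A, 4 without medium P A and 8 without medium P C. Of the 12 lower genes, GLU1 and HCEF1 encode plastid enzymes. GLU1 (AT5G04140), ferredoxin-dependent glutamate synthase, had 0.957, 1.44 and 2.36 CPM under low P and 14.9, 3.45 and 10.0 CPM under medium P, and HCEF1 (AT3G54050), the chloroplast fructose-1,6-bisphosphatase, had 0.957, 0.721 and 1.09 CPM against 5.32, 4.83 and 4.14 CPM. Both overlap a gene on the opposite strand. Whether shoot or greened tissue differed in amount between the samples was not tested.

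**Figure D4:**
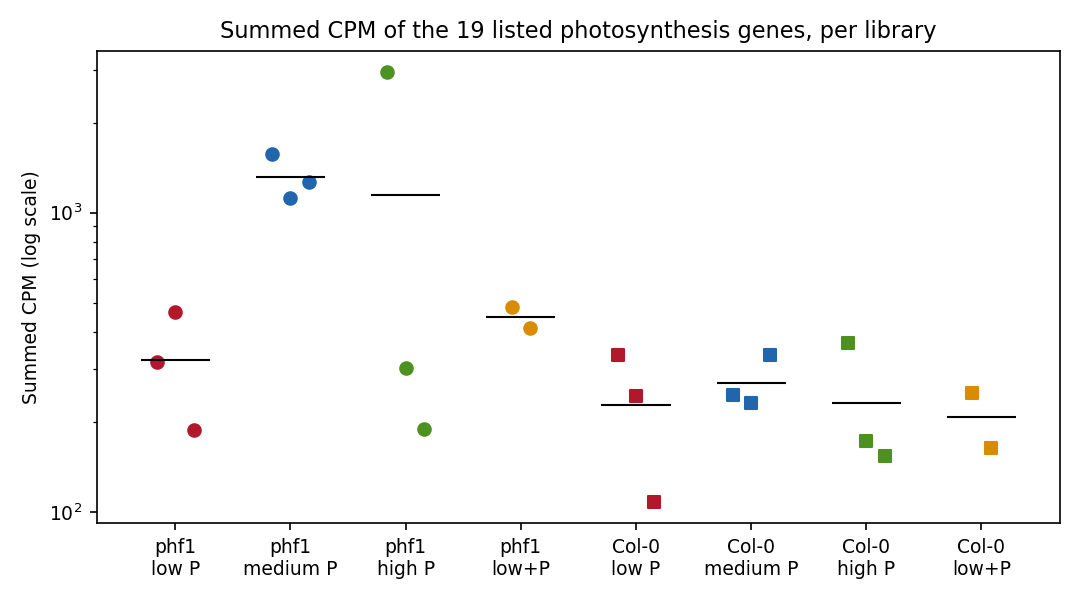
Summed CPM (y axis, log scale) of the 19 listed photosynthesis genes in each phf1 (circles) and Col-0 (squares) library of the 4 P regimes (x axis), with a line at the mean of each group. The 3 phf1 medium P libraries sit between 1117 and 1571 and the phf1 low P libraries between 188 and 464, and in phf1 high P 1 library reaches 2949.

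Marker genes of root cell types varied between libraries of the same soil. The Casparian strip list, genes of the endodermal barrier, had a summed CPM of 6.70, 13.3 and 93.6 in low P and 132, 71.0 and 44.2 in medium P. CASP1 (AT2G36100), a scaffold protein of the strip, had 0.319, 0.721 and 29.6 CPM under low P and 46.4, 21.2 and 11.9 CPM under medium P. MYB36 (AT5G57620), the regulator of strip formation, was the only gene of this list without overlap, at 2.55, 5.41 and 9.81 CPM against 17.7, 10.06 and 10.7 CPM. Root hair genes summed to 6.38, 4.33 and 124 CPM under low P and 117, 32.3 and 37.3 CPM under medium P. Genes of the root triterpenes thalianol and marneral summed to 9.89, 3.61 and 104 CPM under low P and 453, 15.4 and 8.28 CPM under medium P, and THAD (AT5G47990) alone had 3.19, 1.08 and 22.9 CPM against 158, 4.96 and 0.863 CPM. In all 3 lists the root marker sums of low P A and B were low, and those of low P C and medium P A were high. All 6 Casparian strip genes that passed had negative log2 fold changes (median -0.93, or -3.53 without low P C), as did all 6 triterpene genes (median -1.64, but 1.78 without medium P A). Of the root hair genes, 5 of 8 were lower. None of these genes had an unadjusted p below 0.05. The part of these differences in cell type markers in the suberin values was not tested.

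Nitrogen genes varied in the same way. All 10 nitrate and ammonium genes that passed were lower in phf1 low P, with a median of -0.80, and all 10 were higher in Col-0 low P (median 1.98). Their summed CPM was 568, 889 and 3470 in phf1 low P and 3063, 1632 and 2494 in phf1 medium P. In Col-0 it was 943, 1438 and 5156 in low P and 96.6, 927 and 1210 in medium P. The sums overlap between the soils in both genotypes. NIA1 (AT1G77760), a nitrate reductase, had 129, 164 and 2209 CPM under low P and 1218, 874 and 1433 CPM under medium P, so that low P C held both the group's highest value and the highest of the 6. NRT2.1 (AT1G08090), a high-affinity nitrate transporter, had 10.2, 15.5 and 58.9 CPM against 157, 25.5 and 36.1 CPM, NRT1.1 (AT1G12110), a nitrate transporter and sensor, 82.6, 87.3 and 220 CPM against 677, 65.6 and 80.1 CPM, and NRT3.1 (AT5G50200), the partner protein of NRT2.1, 19.8, 16.9 and 69.6 CPM against 134, 35.4 and 38.7 CPM. No gene of the list had an unadjusted p below 0.05 in phf1, and the phf1 median was -0.06 without medium P A. No gene of the list was called for the difference between the genotypes. NRT1.1 is also a Cluster 1 gene, and that set was chosen on samples that include these low P libraries.

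Low P B stood out in a sulfur gene and an iron gene. APR1 (AT4G04610), a sulfate-assimilating reductase, had 79.4, 302 and 54.0 CPM under low P and 80.5, 48.8 and 63.3 CPM under medium P. OPT3 (AT4G16370), a transporter of iron signalling, had 13.1, 578 and 11.3 CPM under low P and 44.0, 17.2 and 19.7 CPM under medium P. Low P B alone was high in both, and without it the log2 fold change of OPT3 was -1.06 in place of 2.91. Of the sulfur genes 6 of 8 were higher in low P (median 0.44), and of the iron genes 8 of 13 (median 0.37). Without low P B the sulfur median was -0.05. The iron median was -1.47 without low P C, -0.22 without medium P B and -0.15 without medium P C.

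Among hormone and defence genes, JAZ2 (AT1G74950), a repressor of jasmonate responses, was higher in low P, at 346, 147 and 126 CPM against 96.4, 75.0 and 97.7 CPM, with no overlap (log2 fold change 1.28, standard error 0.440). OPR3 (AT2G06050), a jasmonate synthesis enzyme, had 50.1, 40.02 and 31.97 CPM under low P and 34.7, 24.8 and 25.4 CPM under medium P. Over the jasmonate list 8 of 12 were higher, with a median of 0.12, which was -0.16 without medium P C and 0.65 without medium P A. WRKY70 (AT3G56400), a regulator of salicylic acid defence, was lower in low P, at 6.38, 11.5 and 15.4 CPM against 23.4, 33.6 and 20.4 CPM, with no overlap (log2 fold change -1.18, standard error 0.332). PAD4 (AT3G52430), which acts with EDS1 in the same defence, had 15.3, 29.9 and 36.5 CPM against 63.4, 43.7 and 35.9 CPM. Of that list 8 of 13 were lower, with a median of -0.22, which was 0.01 without low P A, 0.10 without low P C and 0.07 without medium P A. CYP81F2 (AT5G57220), which modifies indole glucosinolates, had 11.2, 27.8 and 19.6 CPM under low P and 52.8, 29.9 and 51.3 CPM under medium P, without overlap. Of the camalexin and indole glucosinolate list 6 of 10 were higher, with a median of 0.15, which was -0.35 without low P B and -0.14 without low P C. No member of these lists was called.

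Of the hypoxia genes 9 of 11 were lower (median -0.68), with HRE1 (AT1G72360), an ethylene response factor of low oxygen, at 86.4, 32.8 and 114 CPM under low P and 72.3, 224 and 229 CPM under medium P. COR47 (AT1G20440), a dehydrin, had 27.1, 24.9 and 78.7 CPM under low P and 196, 145 and 74.7 CPM under medium P, so that low P C overlapped medium P C. Of the 10 abscisic acid and drought genes 6 were lower. All 4 senescence genes that passed were lower. SEN1 (AT4G35770), a gene that darkness and senescence induce, had 24.6, 14.8 and 13.1 CPM under low P and 52.1, 140 and 30.7 CPM under medium P, without overlap, and in Col-0 it had 61.9, 36.5 and 11.7 CPM under low P and 2.12, 1.84 and 20.6 CPM under medium P. All 5 heat shock genes and all 3 ferritin genes that passed were lower too, with medians of -0.49 and -0.17 and no gene at an unadjusted p below 0.05. The time of harvest cannot be read from the labels. The study took its samples in random order to guard against circadian confounding, and clock genes differed between libraries of the same soil. The morning gene CCA1 (AT2G46830) ran from 7.93 to 78.1 CPM over the low P libraries and from 8.51 to 48.0 CPM over the medium P libraries. RVE8 (AT3G09600) had 59.3, 15.1 and 28.7 CPM against 13.8, 13.7 and 15.4 CPM. The median of the morning list was 0.91 and that of the evening list 0.10, which was -0.13 without low P A, -0.06 without low P B and -0.02 without medium P C.

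**Figure D5:**
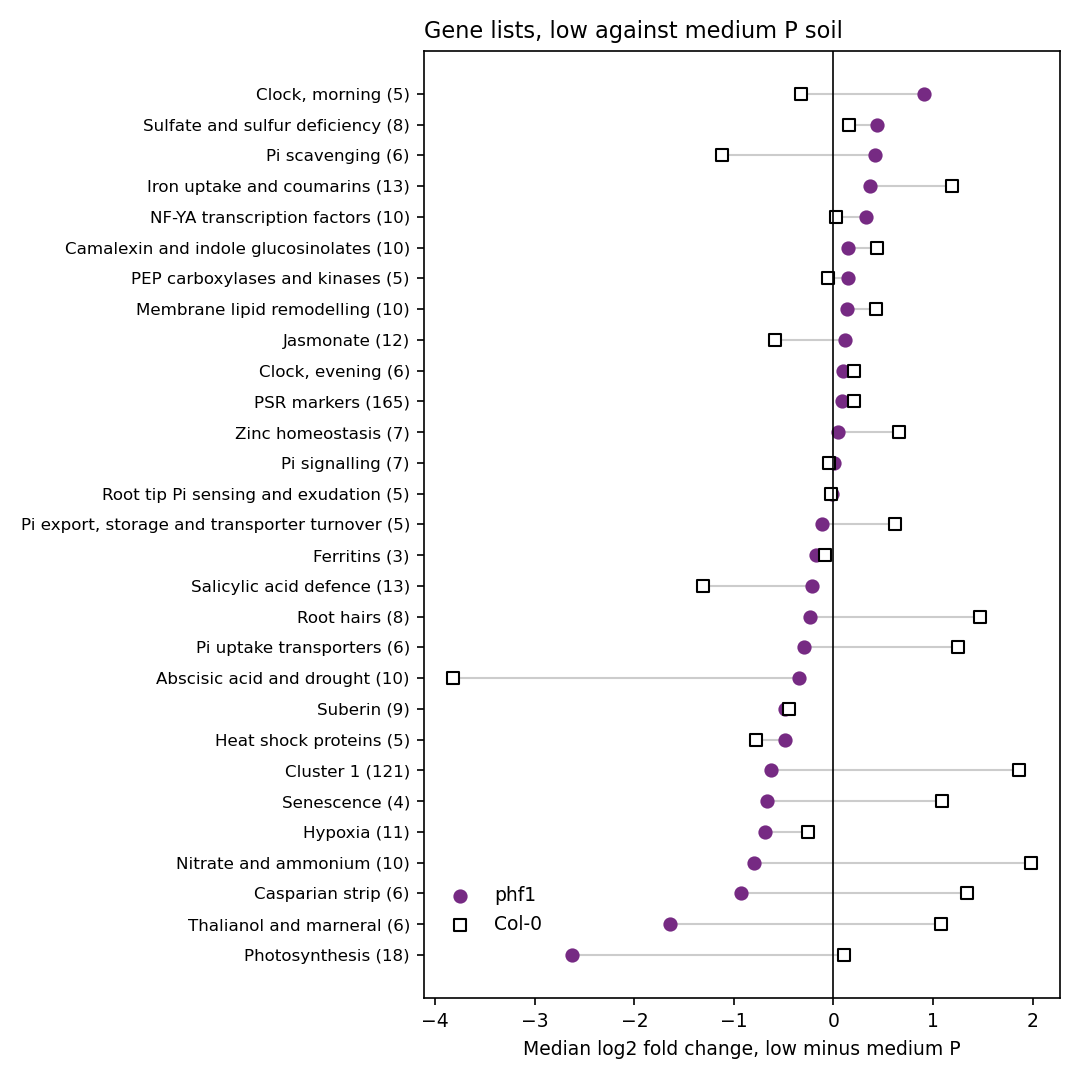
Median log2 fold change of low minus medium P (x axis) for each gene list (y axis, with the number of genes that passed the filter in phf1), in phf1 (circles) and Col-0 (squares). Of the lists plotted, photosynthesis has the lowest phf1 median (-2.62, against 0.11 in Col-0). Many lists lie on opposite sides of 0 in the genotypes. Cluster 1, nitrate and ammonium, Casparian strip, root hairs and Pi scavenging are among them.

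The other P regimes of phf1 put these values in context, although they share libraries with the comparison above. The photosynthesis list had a median of -1.41 for low minus high P, -0.68 for low minus low+P and 0.76 for medium minus high P. The suberin list had -0.40, 0.01 and 0.22, and the PSR markers 0.02, 0.23 and -0.08. The Pi uptake list had a median of 0.85 for low minus high P, 1.59 for low minus low+P and 0.79 for medium minus high P. For low minus medium P it was -0.30. The summed CPM of this list was 166, 27.8 and 212 in phf1 low P and 57.6, 545 and 172 in phf1 high P. In phf1 low+P it was 107 and 29.2, so low P overlapped both groups.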

How the data were processed

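Roots were profiled by non-stranded poly(A) RNA-seq with 50-base single-end reads. The authors trimmed reads with Trimmomatic 0.36, mapped them with HISAT2 2.1.0 to TAIR10 and counted them per gene with featureCounts, and deposited the raw counts (27206 genes, 25 libraries). For featureCounts, neither version nor strand setting is given in the sources used here. Reads shared by relatives or by overlapping genes can move a count, so such genes are named as uncertain from TAIR10.1, which was used for names and overlaps only (26719 IDs matched).

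Counts were analysed in R 4.3.3 with edgeR 4.0.16 (filterByExpr, TMM, quasi-likelihood test, two-sided, Benjamini-Hochberg adjusted p below 0.1) on the 11 phf1 libraries. The difference between genotypes was the interaction term in the 12 libraries of phf1 and Col-0 in low and medium P. Overlap of the groups was read from CPM of total counts. DESeq2 1.42.0, limma 3.58.1 (voom), other scalings and filters, other sets of libraries and leaving out each library were alternatives, and robust dispersion and list medians over all 25 libraries were added after seeing the data. The filter on low counts was run again in each fit. A list's median without a library is therefore over the members that passed in that fit, which could differ. DESeq2 gave no adjusted p for 80 genes, which stayed without one. With 3 against 3 libraries an exact test cannot go below p = 0.1. The edgeR steps were run on simulated counts with 200 changed genes as a check of the code. The simulation did not include a library set apart like low P C, so it does not measure power in these data.

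Genes named were the 12 of smallest p in each direction whose groups do not overlap, PHF1, PHR1 and PHL1, the members of each list at an unadjusted p below 0.05 or else its 2 of smallest p, and any member of the Pi lists. NRT2.1, NRT1.1, NIA1, CASP1 and FAR1 were chosen after their values were seen. The comparison and the lists were chosen with earlier results of these data known. Columns of the count table give the group and not the replicate number.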

Additional observations from a re-analysis of the deposited data

Results flagged for a closer look

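NIT2 drew attention because its change from medium to low P soil differed between the genotypes by a test of the difference itself, edgeR's interaction term. The difference, phf1 minus Col-0, was -4.24 on the log2 scale (adjusted p = 0.0937 from that test). Leaving out most single libraries changed the call. All 3 phf1 low P libraries were below all 3 phf1 medium P libraries, and all 3 Col-0 low P libraries were above all 3 Col-0 medium P libraries. NIT2 is a Cluster 1 gene. The study chose that set on samples that include these low P libraries, so the difference is not independent evidence.

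The mean level of the senescence list separated the soils in opposite directions in the genotypes, but its summed CPM did not separate them. This mean was lower in every phf1 low P library than in every phf1 medium P library, and higher in every Col-0 low P library than in every Col-0 medium P library. In phf1 the margin was narrow, at -0.143 in low P A and -0.077 in medium P C (log2 CPM, centred on the phf1 libraries). The same mean over all genes tested was -0.19 in low P A and 0.035 in medium P C, a wider gap. The median difference between the genotypes over its 4 genes was -1.76, and the difference for the list was not tested. The summed CPM of the list was 646.5, 305.4 and 261.9 in phf1 low P and 561.4, 647.0 and 399.3 in phf1 medium P. For Col-0 it was 829.6, 640.3 and 461.7 under low P against 678.0, 325.7 and 530.4 under medium P, so the sums overlap in both genotypes. NAP, a member of this list, also belongs to Cluster 1, which the study chose on samples that include these low P libraries.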

How the results depend on the processing

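No paired analysis was possible because the columns of the count table carry no replicate number. The count of genes called between low and medium P in phf1 was 0 under every alternative run except DESeq2, which called 3, and leaving out each library gave 0 to 0. The count for the difference between the genotypes was 1, against 32 with DESeq2, 0 at an adjusted p below 0.05, and 0 to 151 when each library was left out. Of the 101 genes followed, 17 changed sign under at least 1 alternative, of which 2 did so under an alternative other than leaving out a library. THAD was 0.33 with limma-voom. SPX4 was -0.0131 with limma-voom, -3e-04 with RLE size factors and -0.0025 in the 6 libraries alone. Leaving out each library moved the log2 fold change of PHF1 from -0.46 to 0.28, PHR1 from -0.0815 to 0.0401, PHT1;1 from -0.84 to 0.61, PHO1 from -0.29 to 0.16, PHO1;H1 from -0.36 to 0.76 and PHO2 from -0.16 to 0.28. The same ranges were -0.98 to 0.20 for SPX1, -0.24 to 0.40 for SPX2, -0.23 to 0.24 for SPX4, -0.0801 to 0.0022 for PAP26, -0.0543 to 0.66 for SQD1 and -1.06 to 3.47 for OPT3. They were -1.61 to 0.86 for NRT1.1, -2.86 to 0.0408 for AMT1;3, -6.19 to 0.56 for CYP705A12, -4.51 to 1.68 for THAD and -2.50 to 0.37 for AT4G11290. The causes were not tested. The flavonoid list had no value in the 6 libraries alone. Genes near 1 CPM rest on a few counts per library, so their fold changes are imprecise at this depth.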
